A study of Mus musculus with 7 samples.

Results

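The fatty acid elongases and desaturases of mouse liver were examined in primary hepatocytes that lack *Wdr6*. The genes were chosen by name, as the rows of the deposited table of read counts whose symbol is *Scd1*, *Scd2*, *Fads1*, *Fads2*, *Fads3*, *Elovl1*, *Elovl2*, *Elovl3*, *Elovl5* or *Elovl6*. Of these 10 genes, 9 had a row, among 14819 rows in all, and *Elovl3* was not analysed here. All 9 passed the filter on low counts, with between 493 and 23893 reads per library.

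Fatty acid synthase makes palmitate, a saturated fatty acid. Elongases of the Elovl family then catalyse the condensing step that lengthens palmitate and other fatty acids in the endoplasmic reticulum, and stearoyl-CoA desaturases put a first double bond into saturated chains, which gives the palmitoleate and oleate stored in hepatic triacylglycerol. The Fads desaturases act with *Elovl5* and *Elovl2* on fatty acids from the diet and make the long polyunsaturated chains of membrane phospholipids. In liver, genes of these families are known targets of SREBP-1c, ChREBP, LXR and PPARα.

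RNA was sequenced from hepatocytes of 4 WT and 3 WDR6-WKO samples, 1 library each, to ask how the transcriptome differs without WDR6. WDR6-WKO mice carry a CRISPR–Cas9 deletion of exon 2 of *Wdr6* in the whole body, so the gene was missing from every cell type before the cells were isolated, and WT mice were the controls. Hepatocytes came from male mice by collagenase perfusion, were kept overnight in serum-containing medium and received no treatment. A default age is stated for the purchased mice of the study, but no age for these groups in particular, nor the animals behind each library, and p-values therefore measure the spread between these samples.

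The libraries held between 17816913 and 23668940 counted reads. *Wdr6* was counted 972, 776, 769 and 909 times in WT libraries 1 to 4 and 62, 49 and 40 times in WDR6-WKO libraries 1 to 3, so each library matched its label. Libraries are numbered by their replicate. WDR6-WKO replicate 3 stood apart from the others of its genotype, with a chi-square per gene of 14.4 and 16.2 against WDR6-WKO replicates 1 and 2, which differed from each other by 5.17. Pairs of WT libraries differed by 3.84 to 8.34. All 10 hepatocyte markers were counted, led by *Alb*, the gene of albumin, at 7366 CPM in WT, and *Tat* was low at 1.50 CPM. CPM are read counts scaled to a fixed library total with edgeR's TMM factors.

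Among the desaturases, *Scd1* rose and *Scd2* fell in WDR6-WKO hepatocytes, and no Fads gene passed the test. Among the elongases, *Elovl2* fell. Adjusted p-values come from the quasi-likelihood test of edgeR, adjusted by Benjamini-Hochberg over all 14779 genes tested, and a gene was called below 0.05. Thus 1 of the 9 genes was called higher, where 6.65% of all genes were, and 2 of the 9 were called lower, where 6.18% were. The median log2 fold change of the 9 genes was -0.01, beside 0.01 over all genes tested. With libraries scaled by size alone it was 0.02, beside 0.03 over all genes.

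**Figure D1:**
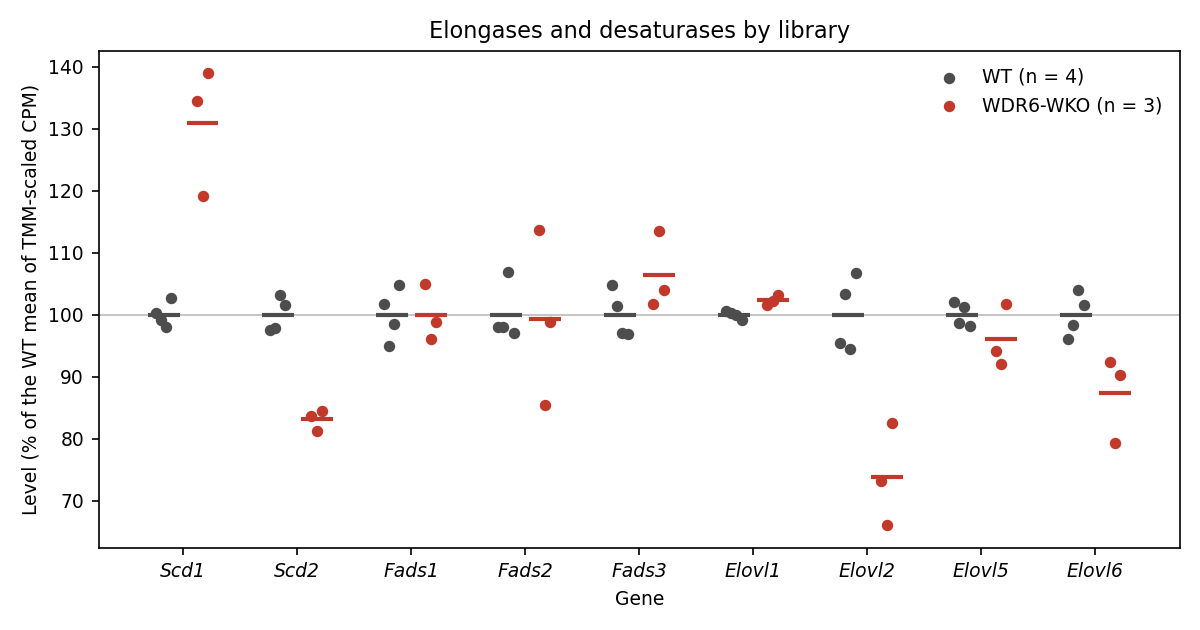
Level of each gene in each library, as a percent of its mean TMM-scaled CPM in WT. Points are libraries, grey for WT (n = 4) and red for WDR6-WKO (n = 3), and horizontal lines are group means. WDR6-WKO libraries lie at 119 to 139% for *Scd1*, at 81.3 to 84.4% for *Scd2* and at 66.0 to 82.5% for *Elovl2*, outside the WT points.

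*Scd1* and *Scd2* encode stearoyl-CoA desaturases, the enzymes that make monounsaturated fatty acids, and *Scd1* is the main form of mouse liver. In GRCm38, *Scd2* lies on chromosome 19 from 44293674 to 44306864 on the plus strand and *Scd1* from 44394455 to 44407879 on the minus strand, with a gap of 87591 bases between them. Their coding sequences of 1065 and 1074 bases are identical at 90.3% of aligned bases, with a longest identical run of 147 bases. Over whole transcripts, 4.66% of the 50-base sequences of *Scd1* and 4.01% of those of *Scd2* also occur in other genes, above all in each other, *Scd3* and *Scd4*. Reads that lie wholly within such stretches, mates included if any, cannot be assigned to either gene with certainty. How they were counted is not given in the sources used here. An identical stretch in exon 4 of both genes is shown first, followed by the stretch of equal length in exon 2 where the genes are least alike. They show where the sequence itself can and cannot tell the genes apart. Capitals mark the 24 mismatches, and both genes are written 5′ to 3′ on their own coding strand.
Scd1, exon 4, chr19:44401827-44401886: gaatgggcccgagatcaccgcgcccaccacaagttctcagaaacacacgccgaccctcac
Scd2, exon 4, chr19:44299621-44299680: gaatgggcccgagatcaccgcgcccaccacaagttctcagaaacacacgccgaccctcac
Scd1, exon 2, chr19:44406647-44406706: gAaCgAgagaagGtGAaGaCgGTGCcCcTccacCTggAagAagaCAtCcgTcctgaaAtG
Scd2, exon 2, chr19:44294967-44295026: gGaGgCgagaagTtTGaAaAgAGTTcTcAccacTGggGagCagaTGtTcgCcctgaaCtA

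*Scd1* was counted at 740, 732, 724 and 758 CPM in WT libraries 1 to 4 and at 993, 881 and 1026 CPM in WDR6-WKO libraries 1 to 3. Every WDR6-WKO library was above every WT library. The mean rose from 739 ± 14.9 CPM (SD, n = 4) to 966 ± 76.3 CPM (SD, n = 3), or 131% of the WT level. The log2 fold change was 0.39 (standard error 0.05, 95% confidence interval 0.28 to 0.50, adjusted p = 0.000143), and it was 0.34 (adjusted p = 3.96e-07) without WDR6-WKO replicate 3. In bulk RNA, more cells of a type and more RNA per cell cannot be told apart.

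*Scd2*, the form that predominates in brain and early liver, moved the other way. It was counted at 68.4, 68.6, 72.3 and 71.1 CPM in WT libraries 1 to 4 and at 58.6, 57.0 and 59.1 CPM in WDR6-WKO libraries 1 to 3. The WDR6-WKO libraries lay close together and below all WT libraries. The log2 fold change was -0.27 (standard error 0.05, 95% confidence interval -0.38 to -0.15, adjusted p = 0.00403), a fall from 70.1 ± 1.92 (SD, n = 4) to 58.2 ± 1.12 CPM (SD, n = 3). An absolute log2 fold change of 0.35 with an unadjusted p below 0.05, the thresholds of the study, kept *Scd1* and *Elovl2* and left out *Scd2*, at 1 gene higher and 1 lower of the 9. By those thresholds 6.42% of all genes were higher and 3.94% lower.

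Because both paralogues were counted in the same libraries, their ratio does not depend on the scaling. *Scd1* had 10.8, 10.7, 10.0 and 10.7 reads for each read of *Scd2* in WT libraries 1 to 4 and 16.9, 15.5 and 17.3 in WDR6-WKO libraries 1 to 3. Every WDR6-WKO ratio was above every WT ratio, with means of 10.5 ± 0.361 (SD, n = 4) and 16.6 ± 1.0 (SD, n = 3). The difference was 0.65 on the log2 scale, with p = 0.0286 in an exact two-sided permutation test, the smallest p that the 35 splits of 4 and 3 libraries allow. Adjusted over the 3 ratios tested it was 0.0857, which is the lowest value this design can give to a single ratio that stands out.

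**Figure D2:**
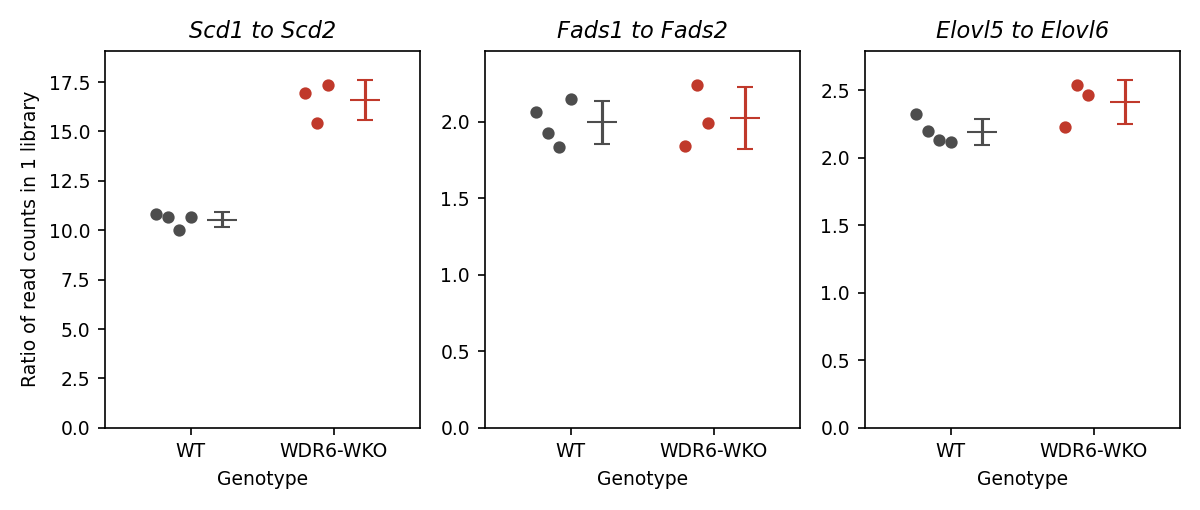
Ratio of read counts of a pair of genes within each library, for *Scd1* to *Scd2*, *Fads1* to *Fads2* and *Elovl5* to *Elovl6*. Points are libraries of WT (grey, n = 4) and WDR6-WKO (red, n = 3) and bars are the mean and SD, each panel with its own axis from 0. The *Scd1* to *Scd2* ratio is 10.0 to 10.8 in WT and 15.5 to 17.3 in WDR6-WKO, and in the other panels the points of the genotypes overlap.

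*Scd1* also took a larger part of the reads of the 9 genes, 50.1 ± 0.526% (SD, n = 4) in WT and 57.4 ± 1.65% (SD, n = 3) in WDR6-WKO. The summed level of the 9 genes was 1474 ± 16.0 CPM in WT and 1683 ± 85.7 CPM in WDR6-WKO. Without *Scd1* the sum was 735 ± 5.33 CPM in WT and 717 ± 9.41 CPM in WDR6-WKO. The ranges, 729.7 to 742.5 CPM in WT and 706.28 to 724.55 CPM in WDR6-WKO, did not overlap. The other 8 genes together were thus slightly lower at this scaling, a difference that was not tested.

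*Fads3*, *Fads2* and *Fads1* lie together on chromosome 19 of GRCm38. *Fads3* runs from 10041569 to 10060110 on the plus strand, *Fads2* from 10062765 to 10101746 on the minus strand and *Fads1* from 10182888 to 10196877 on the plus strand. *Fads2* encodes the desaturase of the first step of polyunsaturated fatty acid synthesis and *Fads1* that of a later step. *Fads3* is a relative that acts on sphingoid bases. None passed the test, and the direction of the small *Fads1* and *Fads2* differences depended on the scaling and on single libraries.

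*Fads1* was counted at 95.0, 88.7, 92.1 and 98.0 CPM in WT libraries 1 to 4 and at 98.1, 89.8 and 92.3 CPM in WDR6-WKO libraries 1 to 3. The group means were equal to 3 digits, at 93.4 CPM, and the 95% confidence interval of the log2 fold change ran from -0.12 to 0.12 (adjusted p = 0.998). The interval leaves room for a small change in either direction.

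*Fads2* stood at 46.0, 46.0, 50.2 and 45.5 CPM in WT libraries 1 to 4 and at 53.4, 40.1 and 46.4 CPM in WDR6-WKO libraries 1 to 3. The WDR6-WKO libraries lay on both sides of the WT range, with a coefficient of variation of 14.2%, beside 4.66% in WT. The log2 fold change was -0.01 (95% confidence interval -0.18 to 0.17, adjusted p = 0.965). The ratio of *Fads1* to *Fads2* reads was 1.99 ± 0.141 (SD, n = 4) in WT and 2.02 ± 0.202 (SD, n = 3) in WDR6-WKO, with p = 0.771 in the exact permutation test.

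*Fads3* was counted at 190, 184, 176 and 176 CPM in WT libraries 1 to 4 and at 184, 206 and 188 CPM in WDR6-WKO libraries 1 to 3. WDR6-WKO replicate 2 was the highest, and the other WDR6-WKO libraries lay within the WT range. The log2 fold change was 0.09 (95% confidence interval -0.02 to 0.20, adjusted p = 0.286).

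The elongases lie on separate chromosomes. In GRCm38, *Elovl1* lies on chromosome 4 from 118428093 to 118432953, *Elovl2* on chromosome 13 from 41182381 to 41220405, *Elovl5* on chromosome 9 from 77917364 to 77984519, and *Elovl6* on chromosome 3 from 129532355 to 129638495. *Elovl2* is on the minus strand and the others are on the plus strand.

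*Elovl2* and *Elovl5* lengthen polyunsaturated fatty acids, and *Elovl2* is needed for the longest of them, including the precursor of docosahexaenoate. The transcription factor USF1, which the study follows as a regulator of lipogenesis, binds E-boxes, so the 250 bases before the RefSeq start of *Elovl5*, with an E-box, are shown beside those of *Elovl2*, the elongase that fell. Both are from GRCm38 and written on the strand of the gene, and the *Elovl2* window is 1 of 2 in the table. Capitals mark CACGTG (the E-box), CCAAT and GGGCGG (the GC box bound by Sp1), each searched on both strands.
Elovl5, chr9:77917115-77917364: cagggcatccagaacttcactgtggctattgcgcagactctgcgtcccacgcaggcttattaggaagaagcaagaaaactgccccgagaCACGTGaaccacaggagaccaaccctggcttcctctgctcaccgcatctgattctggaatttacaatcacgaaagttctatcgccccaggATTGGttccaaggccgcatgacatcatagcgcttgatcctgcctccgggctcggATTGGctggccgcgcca
Elovl2, chr13:41220404-41220653: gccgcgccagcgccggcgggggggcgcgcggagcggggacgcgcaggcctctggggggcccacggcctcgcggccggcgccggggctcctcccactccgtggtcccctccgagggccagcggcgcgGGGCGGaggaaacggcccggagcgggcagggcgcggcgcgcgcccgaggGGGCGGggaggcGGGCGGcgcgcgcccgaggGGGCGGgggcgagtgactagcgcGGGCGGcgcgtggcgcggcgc

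The *Elovl5* window held CACGTG 161 bases before the start and CCAAT in 2 places. The *Elovl2* window shown held GGGCGG in 5 places and neither of the other motifs, and the *Elovl2* window not shown held none of them. RefSeq windows were found for 6 of the 9 genes, 8 windows in all, and *Scd1*, *Scd2* and *Fads1* had no entry. CACGTG was found in 1 of the 8, CCAAT in 3 and GGGCGG in 5, where 6.02%, 33.8% and 32.7% of the 32851 RefSeq windows of this length held them. The 5 windows with GGGCGG include both windows of *Elovl1*. The sterol regulatory element TCACNCCAC and the PPAR response element, 2 copies of AGGTCA with 1 base between them, were found in none of the 8, and in 1.05% and 0.0335% of all windows. These matches are letters in a sequence, and binding was not measured.

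*Elovl2* was counted at 33.7, 36.4, 33.3 and 37.7 CPM in WT libraries 1 to 4 and at 25.8, 23.3 and 29.1 CPM in WDR6-WKO libraries 1 to 3. All WDR6-WKO libraries lay below all WT libraries. The mean fell from 35.3 ± 2.11 (SD, n = 4) to 26.1 ± 2.91 CPM (SD, n = 3), or 73.9% of the WT level. The log2 fold change was -0.44 (standard error 0.08, 95% confidence interval -0.62 to -0.26, adjusted p = 0.00235), and it was -0.52 (adjusted p = 2.55e-06) without WDR6-WKO replicate 3.

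*Elovl5*, which acts on shorter polyunsaturated chains, was counted at 125, 121, 124 and 120 CPM in WT libraries 1 to 4 and at 115, 113 and 125 CPM in WDR6-WKO libraries 1 to 3. WDR6-WKO replicate 3 lay within the WT range and the other WDR6-WKO libraries lay below it. Its log2 fold change was -0.06 (95% confidence interval -0.17 to 0.05, adjusted p = 0.493).

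*Elovl6* lengthens palmitate to stearate. It was counted at 53.8, 55.0, 58.2 and 56.8 CPM in WT libraries 1 to 4 and at 51.7, 44.4 and 50.5 CPM in WDR6-WKO libraries 1 to 3. The WDR6-WKO libraries were below all WT libraries, the highest of them close to the lowest WT library. Its log2 fold change was -0.20 (standard error 0.07, 95% confidence interval -0.33 to -0.06), with an unadjusted p of 0.00896 and an adjusted p of 0.062, which did not pass. Without WDR6-WKO replicate 3 the adjusted p was 0.00855 at a log2 fold change of -0.22, so the call of *Elovl6* changed with that library. Of the 50-base sequences of *Elovl6*, 4.40% occur in other transcripts, and 34 bases of its exons overlap the antisense gene *Gm35986*. The ratio of *Elovl5* to *Elovl6* reads was 2.19 ± 0.0941 (SD, n = 4) in WT and 2.41 ± 0.161 (SD, n = 3) in WDR6-WKO, with p = 0.114 in the exact permutation test and 0.171 after adjustment over the 3 ratios.

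*Elovl1* makes very long saturated chains used in sphingolipids. It varied least, at 131, 130, 130 and 129 CPM in WT libraries 1 to 4 and 132, 133 and 134 CPM in WDR6-WKO libraries 1 to 3. The WDR6-WKO libraries were all above the WT libraries, yet the difference was small, at 130.0 ± 0.790 (SD, n = 4) and 133 ± 1.09 CPM (SD, n = 3). Its log2 fold change was 0.03 (95% confidence interval -0.06 to 0.13, adjusted p = 0.689), which did not pass. Exons of *Elovl1* overlap those of *Cdc20* on the opposite strand by 53 bases, and *Cdc20* stood at 89.4 CPM in WT and 90.3 CPM in WDR6-WKO.

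**Figure D3:**
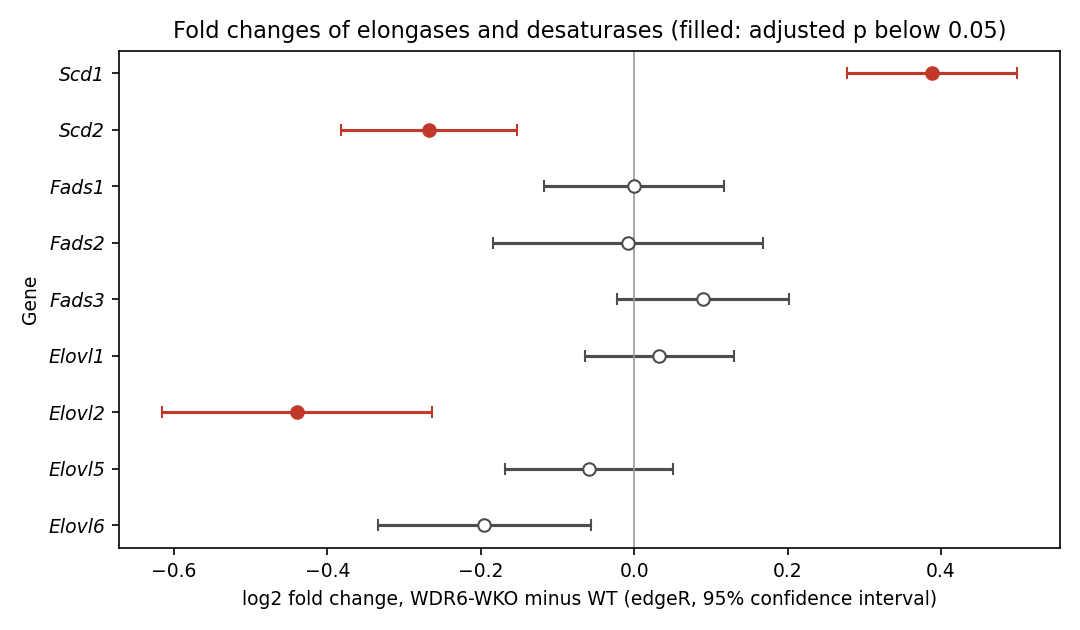
Log2 fold change of each gene in WDR6-WKO against WT hepatocytes, from edgeR, with its 95% confidence interval. Filled red points had an adjusted p below 0.05 over all genes tested, and open points did not. *Scd1* lies at 0.39, *Scd2* at -0.27 and *Elovl2* at -0.44, and the interval of *Elovl6*, from -0.33 to -0.06, also lies below 0.

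The ranges of the genotypes did not overlap for 5 of the 9 genes. *Scd1* and *Elovl1* were the 2 higher ones, where 11.8% of all genes were separate and higher, and *Scd2*, *Elovl2* and *Elovl6* were the 3 lower ones, where 11.7% of all genes were separate and lower. For each of the 5 the exact two-sided permutation test gave p = 0.0286, the smallest that the design allows. This p restates that the ranges were separate and adds no support beyond it. It was not adjusted over the 9 genes. The exact permutation test gave p = 0.171 for *Fads3*, 0.229 for *Elovl5* and 1.0 for *Fads1* and *Fads2*.

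Levels of the genes were compared per length, as CPM per kb of exon. In WT hepatocytes *Scd1* was the highest at 151 ± 3.05 CPM per kb (SD, n = 4). *Fads3* at 47.8 and *Elovl1* at 47.7 CPM per kb overlapped in range, followed by *Elovl5* at 34.8, *Fads1* at 19.4, *Fads2* at 14.2 and *Scd2* at 12.8, each with a range below that of the gene before it. *Elovl2* at 8.90 and *Elovl6* at 8.70 CPM per kb were the lowest and overlapped in range. In WDR6-WKO hepatocytes *Scd1* stood at 198 ± 15.6 CPM per kb (SD, n = 3), and the order differed only in the last places, with *Elovl6* at 7.60 and *Elovl2* at 6.57 CPM per kb, whose ranges overlapped again. Per length of the longest transcript in place of all exons, *Elovl1* at 71.8 came before *Fads3* at 49.2 CPM per kb in WT, and *Elovl6* at 9.40 before *Elovl2* at 9.19.

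**Figure D4:**
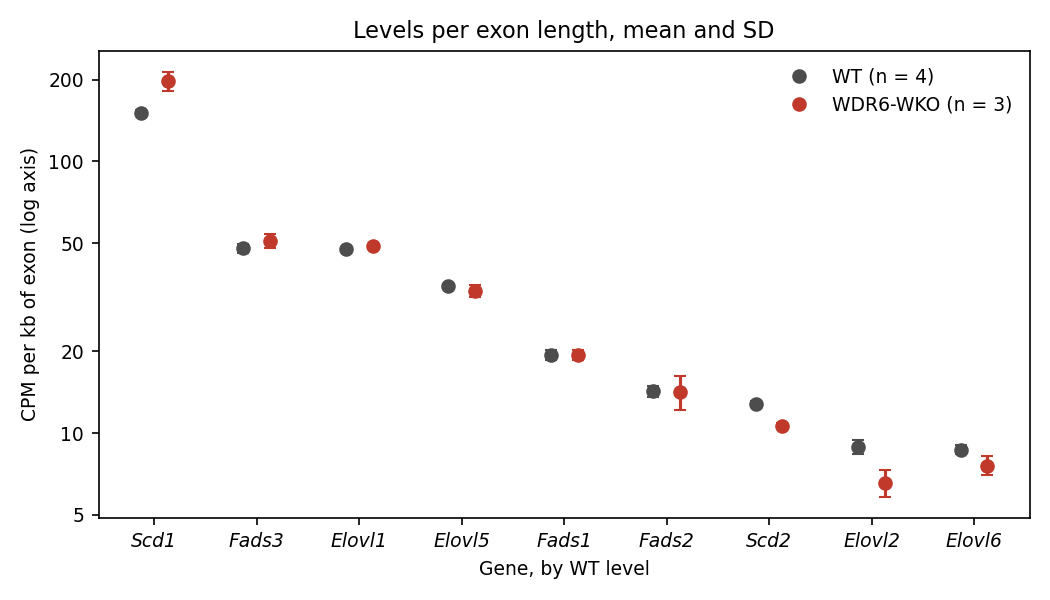
Level of each gene as CPM per kb of exon on a log axis, ordered by the WT level. Points are means and bars the SD of WT (grey, n = 4) and WDR6-WKO libraries (red, n = 3). *Scd1* lies at 151 and 198 CPM per kb, above all others, and *Elovl2* and *Elovl6* lie lowest, below 10 CPM per kb.

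Of the other genes of these families, 4 of 7 listed were tested and none was called. They were *Elovl4* at 0.464 CPM in WT and 0.644 CPM in WDR6-WKO, *Elovl7*, *Fads6* and *Degs1*, with adjusted p from 0.318 to 0.804. *Scd3*, *Scd4* and *Degs2* were not analysed here. Beside the 9 genes on the chromosome, the nearest protein-coding genes with counts were also examined, and genes without counts were passed over. Of these 12 neighbours, 1 was called, *Gclc*, which lies 122879 bases from *Elovl5*. It encodes a subunit of the enzyme that starts glutathione synthesis. *Gclc* stood at 2513 CPM in WT and 2068 CPM in WDR6-WKO (log2 fold change -0.28, adjusted p = 0.00147).

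An elongase performs only the condensing step of each cycle, and reductases and dehydratases complete it. Of the 6 such genes, 1 rose and 1 fell. *Hacd3*, of the dehydratase family, fell from 157 ± 6.78 to 126 ± 6.73 CPM (log2 fold change -0.32, adjusted p = 0.000966), and its low-level relative *Hacd4* rose from 3.79 ± 0.650 to 5.54 ± 0.641 CPM (0.54, adjusted p = 0.0384). The reductases *Hsd17b12* at a log2 fold change of -0.01 and *Tecr* at -0.03, and the dehydratases *Hacd1* at -0.03 and *Hacd2* at -0.05, were not called. The median of the list was -0.03.

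Desaturases draw electrons from cytochrome b5 and its reductase. Of 5 genes of this chain 1 rose, *Cyb5r1*, a relative of the main reductase gene *Cyb5r3*, from 37.7 ± 0.592 to 57.0 ± 6.05 CPM (log2 fold change 0.60, adjusted p = 4.42e-05). *Cyb5a*, *Cyb5b*, *Cyb5r3* and *Cyb5r4* had log2 fold changes between -0.03 and 0.02 and were not called, and the median was 0.01. Of 7 tested genes that activate long fatty acids to acyl-CoA, *Slc27a5*, also a bile acid ligase, rose from 15.6 to 18.8 CPM (0.27, adjusted p = 0.0429) and *Slc27a2* fell from 16.3 to 8.80 CPM (-0.89, adjusted p = 3.95e-05). Their median was -0.09, and without WDR6-WKO replicate 3 *Acsl4* and *Acsl5* were also called, for 3 lower. Over all genes, the fit without that library called 2150 higher and 2083 lower of 14796. With all libraries 983 and 914 of 14779 were called. Every list count given without WDR6-WKO replicate 3 is to be read beside those totals.

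Of 8 genes that supply palmitate, 1 fell, *Me1*, the malic enzyme that supplies NADPH, from 568 ± 28.1 to 490 ± 41.9 CPM (log2 fold change -0.21, adjusted p = 0.0251), and the median was -0.04. *Fasn*, fatty acid synthase, had a log2 fold change of -0.09 (adjusted p = 0.211) in the same fit as *Scd1*. Without WDR6-WKO replicate 3, *Fasn* was also called lower and *Acly*, the source of cytosolic acetyl-CoA, higher, for 1 higher and 2 lower.

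The products of the elongases and desaturases are built into phospholipids and ceramides. Of 10 tested genes of that use, 1 fell, *Lpcat3*, the acyltransferase that inserts polyunsaturated chains into phosphatidylcholine, from 205 ± 3.27 to 168 ± 7.35 CPM (log2 fold change -0.28, adjusted p = 0.000923), and the median was -0.06. Without WDR6-WKO replicate 3, 1 was called higher and 2 lower. The last step to docosahexaenoate is a shortening in peroxisomes. Of its 8 genes, the peroxisomal importer *Abcd3* fell from 145 to 124 CPM (-0.23, adjusted p = 0.0107) and its relative *Abcd2* rose from 3.29 to 5.00 CPM (0.60, adjusted p = 0.0153). The median was -0.14, and 4 of the 8 were called lower without WDR6-WKO replicate 3, where 2083 of 14796 genes were.

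Of 19 regulators, none was called higher and 5 were called lower, with a median log2 fold change of -0.06. *Insig2*, which holds SREBP in the endoplasmic reticulum, fell from 94.8 ± 2.42 to 74.9 ± 0.704 CPM (-0.34, adjusted p = 0.000374). *Mlxipl*, the gene of ChREBP, fell from 149 ± 7.99 to 127 ± 5.87 CPM (-0.24, adjusted p = 0.0103), and *Pparg*, the gene of a nuclear receptor that promotes fat storage, from 20.5 to 16.1 CPM (-0.35, adjusted p = 0.0126). *Nfyb*, a subunit of the factor that binds CCAAT, fell from 48.5 to 40.6 CPM (-0.25, adjusted p = 0.0133). *Srebf1*, the gene of SREBP-1, fell from 127 ± 4.12 to 109 ± 11.7 CPM (-0.21, adjusted p = 0.0445), and it was not called when libraries were scaled by size alone. Without WDR6-WKO replicate 3 the same 5 were called lower and *Usf1* higher. *Insig1* at 0.02, *Ppara* at -0.26 and *Nr1h3*, the gene of LXRα, at -0.07 were not called.

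The median log2 fold change of 14 SREBP-2 targets was -0.01, or 0.02 with libraries scaled by size alone, where that of all genes was 0.03. Of 15 PPARα targets, *Acot2*, a mitochondrial thioesterase, rose (0.64, adjusted p = 0.00155). Among those that fell were *Cpt2* of mitochondrial fatty acid import (-0.26, adjusted p = 0.0112) and *Cyp4a10* (-1.20, adjusted p = 0.024). *Cyp4a10* is near-identical to other Cyp4a genes and its level was low, at 1.44 CPM in WT and 0.635 CPM in WDR6-WKO. The median of the 15 PPARα targets was -0.05. Of 8 LXR targets, 3 fell and 1 rose, with a median of -0.25. They were *Abca1*, a cholesterol exporter (-0.34, adjusted p = 0.00159), *Lpcat3* and *Srebf1*, which are also counted above, and *Abcg1* (0.36, adjusted p = 0.0355), whose ranges overlapped.

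**Figure D5:**
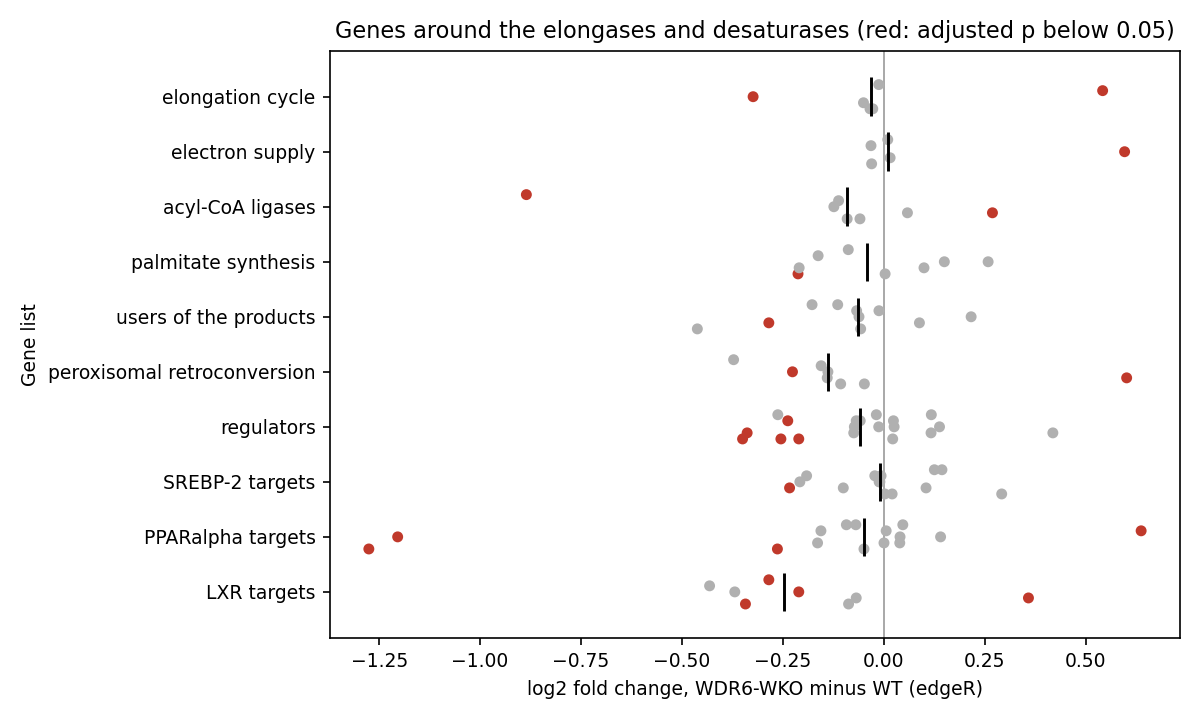
Log2 fold change in WDR6-WKO against WT hepatocytes of each tested gene in 10 lists of genes that supply, assist, use or regulate the elongases and desaturases. Points are genes, red with an adjusted p below 0.05 and grey otherwise, and black bars are list medians, which lie between -0.25 for LXR targets and 0.01 for electron supply. *Acot2* lies highest of the PPARα targets, at 0.64.

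Genes of liver lipid metabolism also follow growth hormone and the circadian clock. Of 13 tested male-biased liver genes, *Mup20* rose (log2 fold change 0.42, adjusted p = 0.000155) and *Selenbp2* (-1.39, adjusted p = 4.65e-06), *Cyp2d9* (-0.84, adjusted p = 0.00116) and *Cyp7b1* (-0.54, adjusted p = 0.0204) fell, with a median of -0.07. *Mup20* belongs to a family of near-identical genes, and its counts are uncertain. Of 17 clock genes, *Ciart* (2.22, adjusted p = 2.79e-05) and *Nfil3* (0.51, adjusted p = 0.00015) rose and *Bhlhe40* fell (-0.16, adjusted p = 0.0326), with a median of -0.09. The level of *Ciart* was low, at 0.796 CPM in WT and 3.76 CPM in WDR6-WKO. *Bhlhe40* was not called when libraries were scaled by size alone. Without WDR6-WKO replicate 3, 3 clock genes were called higher and 3 lower, and 2 male-biased genes higher and 3 lower.

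Some markers of cell types differed between the genotypes, while most of each list were not called with all libraries in the fit. The median log2 fold change was -0.35 for hepatocyte markers, 0.23 for Kupffer cell markers and 0.20 for cholangiocyte markers, beside 0.01 over all genes. Of the 10 hepatocyte markers, 9 had a log2 fold change below 0 and 1 above. Of 10 hepatocyte markers 4 were called lower, *Cps1*, *Hnf4a*, *Apoa1* and *Asgr1*, and the sum of the list was 8305 to 9907 CPM in WT and 7708 to 8226 CPM in WDR6-WKO. Most of that sum was *Alb*, at 7366 CPM in WT and 6480 CPM in WDR6-WKO, which was not called (adjusted p = 0.101). *Asgr1* was not called with library sizes alone, for 3 lower, nor with WDR6-WKO replicate 3 left out, where *Serpina1a* and *Cyp3a11* were also called, for 5 lower. Of 12 Kupffer cell markers 3 were called higher, *Lyz2*, *C1qc* and *C1qb*, and the sum was 860 to 939 CPM in WT and 993 to 1191 CPM in WDR6-WKO. With WDR6-WKO replicate 3 left out, 7 of the 12 were called higher, in a fit that called 2150 of 14796 genes higher. *Clec4f*, which defines Kupffer cells, had a log2 fold change of 0.10 (adjusted p = 0.311). With all libraries, 11 of the 12 had a log2 fold change above 0. *Timd4* went the other way, from 3.65 to 2.59 CPM (-0.48, adjusted p = 0.088), with ranges that did not overlap, and was not called. Of 5 tested cholangiocyte markers 2 were called higher, *Spp1* and *Sox9*, with sums of 3068 to 3360 CPM in WT and 3714 to 4306 CPM in WDR6-WKO, and *Krt19* had a log2 fold change of -0.05. *Spp1* alone made up most of those sums, at 2980 CPM in WT and 3693 CPM in WDR6-WKO. *Krt19*, *Krt7* and *Epcam* were not called. The part of these markers in the changes of *Scd1*, *Scd2* and *Elovl2* was not tested.

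Endothelial markers summed to 311 to 357 CPM in WT and 284 to 339 CPM in WDR6-WKO, with 1 of 8 called lower, *Tek*. Their median log2 fold change was -0.14, with 7 of the 8 below 0. Stellate cell markers summed to 629 to 691 CPM in WT and 664 to 725 CPM in WDR6-WKO, with *Dcn* called higher and *Rgs5* lower of 9. The median of these 9 was 0.11. With WDR6-WKO replicate 3 left out, *Dcn* was not called, *Des*, *Col1a2* and *Col3a1* were called higher and *Rgs5* lower. Of 7 lymphocyte markers, *Ptprc* was tested and not called, and the other 6 were not analysed here. Of 11 genes of dedifferentiation in culture, *Anxa1* and *Lgals3* were called higher and the keratin genes *Krt18* and *Krt8* lower, with a median of -0.01. Without WDR6-WKO replicate 3, 3 of the 11 were called higher. The list summed to 20163 to 20790 CPM in WT and 17347 to 19348 CPM in WDR6-WKO. A large part of those sums was *Krt8*, at 5938 CPM in WT and 4886 CPM in WDR6-WKO, and *Krt18*, at 4272 and 3565 CPM.

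The genes most like *Scd1* across the 7 libraries were *Gin1*, *Bmper*, *Ifit2*, *Olfr1442* and *Siglec1*, with Pearson's r of 0.993, 0.992, 0.991, 0.986 and 0.985 on the log2 scale. The libraries fall into the 2 genotypes, which alone gives a high r to any gene that differs between them.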

How the data were processed

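RNA-seq of primary hepatocytes from 4 WT and 3 WDR6-WKO samples was analysed. Per the labels and the study's methods, the authors prepared libraries with the NEBNext Ultra kit, sequenced them on an Illumina HiSeq platform and aligned reads to mm10 (GRCm38) with Bowtie 2.2.3. The authors deposited raw, unnormalized read counts in rows named by gene symbol. The counting tool, its annotation and its use of strand are not given in the sources used here, and the smallest row total is 50. Reads shared by paralogues or overlapping genes may therefore be split or lost.

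Counts were scaled with TMM and tested with edgeR 4.0.16 in R 4.3.3 (expression filter, robust quasi-likelihood test, Benjamini-Hochberg adjustment over 14779 genes, no replicate block). Groups were taken from the labels. Single genes and ratios within a library were tested by exact two-sided permutation over all 35 splits. On simulated data with 200 changed genes, the test recovered 176 among 14750 genes tested, 100 of 100 at a log2 change of 1 and 76 of 100 at 0.5, each with the simulated direction, and made 14 false calls. Alternatives were DESeq2 1.42.0 (the tool of the study), limma-voom (limma 3.58.1), 2 other scalings, 2 other filters, the replicate number as a block, the thresholds of the study and each library left out in turn. Coordinates, exon lengths and overlaps came from GENCODE for GRCm38, shared sequence from 50-base sequences of its transcripts, and promoter windows from RefSeq (GRCm38.p6).

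The members and all gene lists were chosen with earlier results of these data known. The genes named were the members, *Wdr6*, *Fasn*, the elongation cycle, 6 regulators, up to 4 called genes of each other list with the smallest p, chromosomal neighbours and the 5 genes most like *Scd1*. Further genes were named for completeness after their values were seen. Results for some genes of the lists are not reported here.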

Additional observations from a re-analysis of the deposited data

Results flagged for a closer look

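The level of *Fads2* in WT was the single flagged value among 12 groups of 4 WT libraries tested for a library far from the rest, the 9 genes and the 3 ratios. WT replicate 3 stood at 50.2 CPM and the other WT libraries at 45.5 to 46.0 CPM, so the gap took 0.894 of the range of the group, above Dixon's 95% critical value for 4 samples. Chance flags about 1 in 20 such groups. Without WT replicate 3, the log2 fold change of *Fads2* was 0.03 in place of -0.01, and the gene was called in neither case.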

How the results depend on the processing

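*Scd1* was called higher and *Scd2* and *Elovl2* lower in all 14 alternative fits, with log2 fold changes from 0.34 to 0.45, from -0.28 to -0.24 and from -0.52 to -0.37 and highest adjusted p-values of 0.00178, 0.0204 and 0.0167. *Elovl6* was added only without WDR6-WKO replicate 3 and had an adjusted p from 0.00855 to 0.279. The count of genes called lower was 1 by the thresholds of the study, since *Scd2* fell short of the fold change. With each library left out in turn, 1 of the 9 genes was called higher and 2 to 3 lower. The differences of the ratios were 0.62 to 0.70 for *Scd1* to *Scd2*, -0.06 to 0.08 for *Fads1* to *Fads2* and 0.10 to 0.19 for *Elovl5* to *Elovl6*. Over all genes, 1897 were called, and 1032 to 4233 with a library left out. The highest count came without WDR6-WKO replicate 3, with 2150 genes higher and 2083 lower of 14796. Counts were 1032 and 1180 without WDR6-WKO replicates 2 and 1. Without WT replicates 3 and 4 they were 1210 and 1182. Fewer samples entered each of these fits. Scaling by library size alone gave 1212 higher and 696 lower genes in place of 983 and 914, and a median log2 fold change of 0.03.

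*Fads1* and *Fads2* changed sign without being called. *Fads1* was at 0.00 (0.000409) with limma-voom, at 0.026 with library sizes alone, at 0.023 with the replicate block and at -0.041 to 0.027 with a library left out, above 0 without WT replicates 1 and 4 and WDR6-WKO replicates 2 and 3. *Fads2* was at 0.019 with library sizes alone and at -0.12 to 0.090 with a library left out, above 0 without WT replicate 3 and WDR6-WKO replicate 2. The cause was not tested.

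Same-numbered samples of the genotypes had correlations of 0.134, 0.0664 and 0.0925 of their deviations from the group means, and not every sample correlated best with its own number, so the numbers were not taken as pairs. The replicate block left the calls among the 9 genes as they were and gave 945 higher and 817 lower genes over all, and the difference of the *Scd1* to *Scd2* ratio was 0.66 with it. It was 0.05 for *Fads1* to *Fads2* and 0.12 for *Elovl5* to *Elovl6*. The lists were also counted without WDR6-WKO replicate 3 and with library sizes alone, chosen after seeing the data. Depth was at least 493 reads per library for each of the 9 genes, and 4 against 3 libraries allow no exact permutation p below 0.0286.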
